A study of Mus musculus with 6 samples.

Results

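The data described here are the read counts of 10 genes of the BCL2 family in Treg cells of the mouse. Treg, or regulatory T, cells are CD4 T cells that depend on the transcription factor Foxp3 and hold other immune cells in check. The genes were given by name: Bcl2, Bcl2l1, Mcl1, Bcl2a1b, Bax, Bak1, Bcl2l11, Bbc3, Pmaip1 and Bid. Each was represented by the transcript row with the most reads, and the 10 stand among 23992 gene symbols in the deposited table. The study measured RNA by sequencing in 6 libraries, 3 titled WT and 3 titled KO. Both groups came from male mice carrying the Foxp3YFP-Cre allele, in which Cre recombinase and a yellow fluorescent protein are made where Foxp3 is active, and live CD4+YFP+ cells were sorted. The KO mice also carried Crlf2fl/fl, a floxed Crlf2 gene, so that the deletion was directed to cells with active Foxp3; Crlf2 encodes the receptor chain specific for the cytokine TSLP. The mice were CD45.2, and the labels give no age. They also describe a sort of naive CD45.1 CD4 T cells without saying how it relates to these libraries. The series title ties TSLP signals in Treg cells to allergy and to the upkeep of the Treg state.

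The BCL2 family sets the threshold for the mitochondrial route of apoptosis. Guardian proteins (BCL2, BCL-XL, MCL1 and A1) hold the effectors BAX and BAK in check, and BH3-only proteins (BIM, PUMA, NOXA and BID) oppose the guardians or activate the effectors, which then open the outer mitochondrial membrane. In T cells, BIM is the main trigger of death when cytokines run short, and in Treg cells MCL1 is known to be needed for survival, with BIM and the effectors setting the opposing side. Cytokines that signal through STAT5, among them IL-2, IL-7 and TSLP, are known inducers of guardian genes in lymphocytes.

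Library totals were 1439736 to 12180569 counts in WT and 9649601 to 18352401 counts in KO, and 12720 genes were tested. Crlf2 had 694, 213 and 1111 reads in WT replicates 1 to 3 and 93, 84 and 68 in KO replicates 1 to 3, which goes with the titles, whereas the strain line in each sample's description names the other strain. All 6 Treg markers examined (Foxp3, Il2ra, Ctla4, Ikzf2, Cd3e and Cd4) had reads in every library. Their summed share of the counts was 0.272% to 0.279% in KO replicates 1 and 2 and 0.266% in KO replicate 3, against 0.206%, 0.252% and 0.108% in WT replicates 1 to 3. The labels name spleen and lymph node and the title of the table names lung. All 12 lung epithelial markers examined had reads, with 1 of them at 0 in WT replicate 1. Those 12 summed to 7.56%, 1.7% and 2.17% of the counts in WT and 1.59%, 1.97% and 0.243% in KO, replicates 1 to 3 in each case. WT replicate 3 stood apart: 9 erythroid markers summed to 14.5% of its counts against 0.171% to 0.686% in the other 5 libraries, near-identical globin genes being counted more than once. It was also highest in macrophage and monocyte markers (0.814%), neutrophil markers (0.0366%) and B cell markers (0.0323%). None of these marker lists was at 0 throughout, and their part in the results below was not tested unless a value is given. In bulk RNA, fewer cells of a type and less RNA per cell cannot be told apart.

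**Figure D1:**
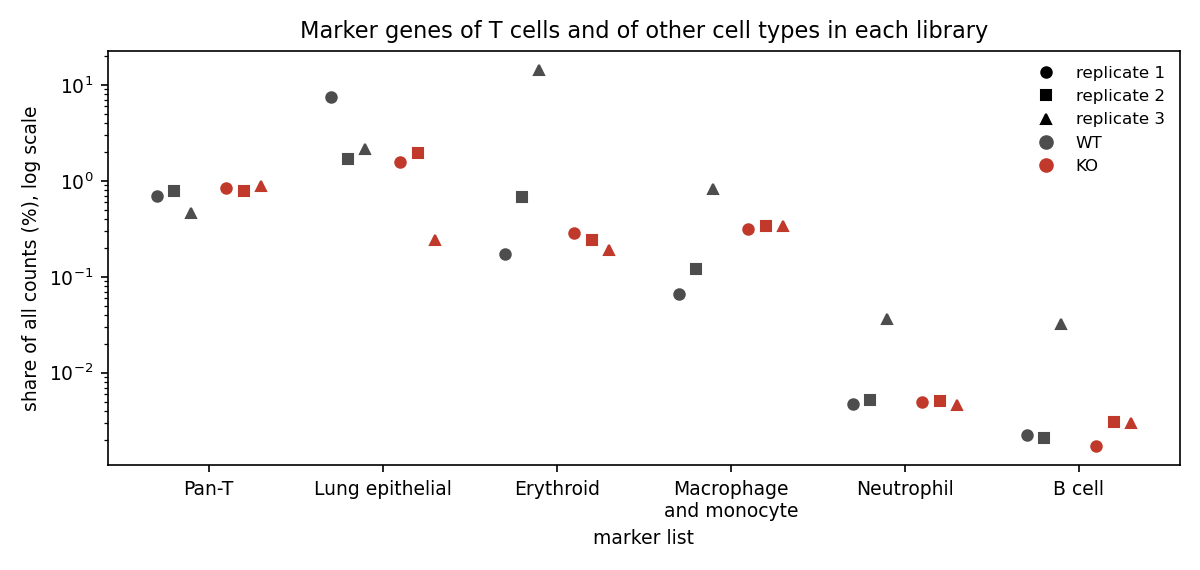
Share of all counts, in percent on a log scale, taken by marker genes of T cells and of 5 other cell types, 1 point per library (grey, WT; red, KO; shapes, replicates). WT replicate 3 is highest for erythroid (14.5%), macrophage, neutrophil and B cell markers, and WT replicate 1 for lung epithelial markers (7.56%).

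None of the 10 genes passed the test between KO and WT. edgeR called 0 of 10 at an adjusted p under 0.05, where 1.74% of all tested genes were called, and limma-voom also called 0. DESeq2 called 2 higher in KO, Bcl2a1b and Bax, where it called 2.91% of the genes higher. At an unadjusted p under 0.05 in edgeR, 4 genes were higher in KO (Bcl2a1b, Bax, Bcl2l11 and Bbc3; 6.74% of all genes) and 1 was lower (Bak1; 9.13% of all genes). The libraries of the groups did not overlap for 3 genes with higher values in KO (Bcl2a1b, Bax and Bbc3), against 10.4% of all genes, and for Bak1, with lower values in KO, against 11.5%. The count of 5 at an unadjusted p under 0.05 fell to 2 without KO replicate 2, to 1 without KO replicate 3 and to 1 (Bak1) when libraries were scaled to pan-T cell genes. The median log2 fold change of KO over WT was 0.09 for the 10 genes and -0.04 for all tested genes. In absolute size the medians were 0.51 and 0.30. Without WT replicate 3, edgeR called Bcl2a1b and Bcl2l11 higher in KO, where 1.87% of all genes were called higher and 2.13% lower. In the 5 fits that left out one of the other libraries edgeR called none of the 10. With WT replicate 3 left out, the remaining WT libraries held 0.0658% and 0.121% macrophage and monocyte marker counts, against 0.313% to 0.337% in KO. The part of this in the gained calls was not tested.

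**Figure D2:**
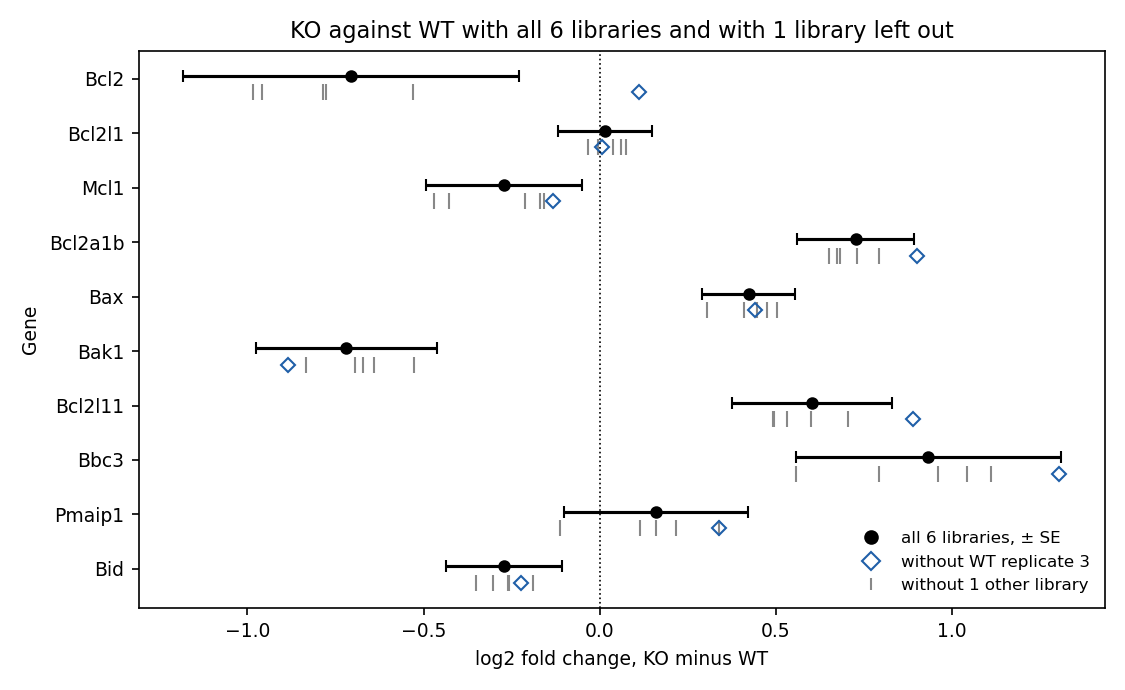
Log2 fold change (KO minus WT) of each gene with all 6 libraries (black, ± SE) and with 1 library left out (blue diamonds, without WT replicate 3; grey ticks, without each of the others). Bcl2 moves from -0.71 to 0.11 when WT replicate 3 is left out, while Bcl2a1b, Bax, Bcl2l11 and Bbc3 stay above 0 and Bak1, Mcl1 and Bid below 0 in each of these fits.

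Among the guardians, Bcl2 was carried by a single library. Bcl2, the founding member, which keeps BAX and BAK inactive at mitochondria, lies at chr1:106538178-106714274 (mm10, minus strand, protein coding). It measured 42.4, 32.2 and 121 CPM (counts per 1000000, scaled between libraries) in WT replicates 1 to 3 and 46.2, 45.5 and 31.3 CPM in KO replicates 1 to 3. WT replicate 3 was more than all others, and the remaining WT libraries lay within the KO range. The log2 fold change was -0.71 (SE 0.48, adjusted p = 0.538 in edgeR), and 0.11 (SE 0.25, adjusted p = 0.857 in edgeR) without WT replicate 3, so the direction rested on that library. The table has 2 rows for Bcl2, of 7207 and 2517 bases. The shorter row held 68.6% to 87.2% as many reads as the longer one over the 6 libraries, with no separation of the groups. Bcl2 shares 558 exon bases with an antisense gene, D630008O14Rik, where without a known strand setting reads cannot be told apart.

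Bcl2l1, which encodes BCL-XL, had the smallest difference of the 10. The gene (chr2:152780668-152831728, minus strand) measured 73.7, 81.4 and 74.8 CPM in WT and 73.1, 83.1 and 75.4 CPM in KO. The ranges coincided almost exactly. Its log2 fold change was 0.02 (SE 0.13, adjusted p = 0.972 in edgeR), and -0.22 under the pan-T cell scaling, which moved the median of all genes to -0.29. Mcl1, a short-lived guardian on which many lymphocytes depend, lies at chr3:95658788-95663176 (plus strand). It measured 95.1, 153 and 155 CPM in WT and 95.5, 135 and 103 CPM in KO. The 2 highest values were in WT, but WT replicate 1 was the lowest library of all. The log2 fold change was -0.27 (SE 0.22, adjusted p = 0.604 in edgeR). With 1 library left out it ran from -0.47 (without WT replicate 1) to -0.13 (without WT replicate 3). It was -0.16 without WT replicate 2, -0.17 without KO replicate 1 and -0.43 without KO replicate 2.

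**Figure D3:**
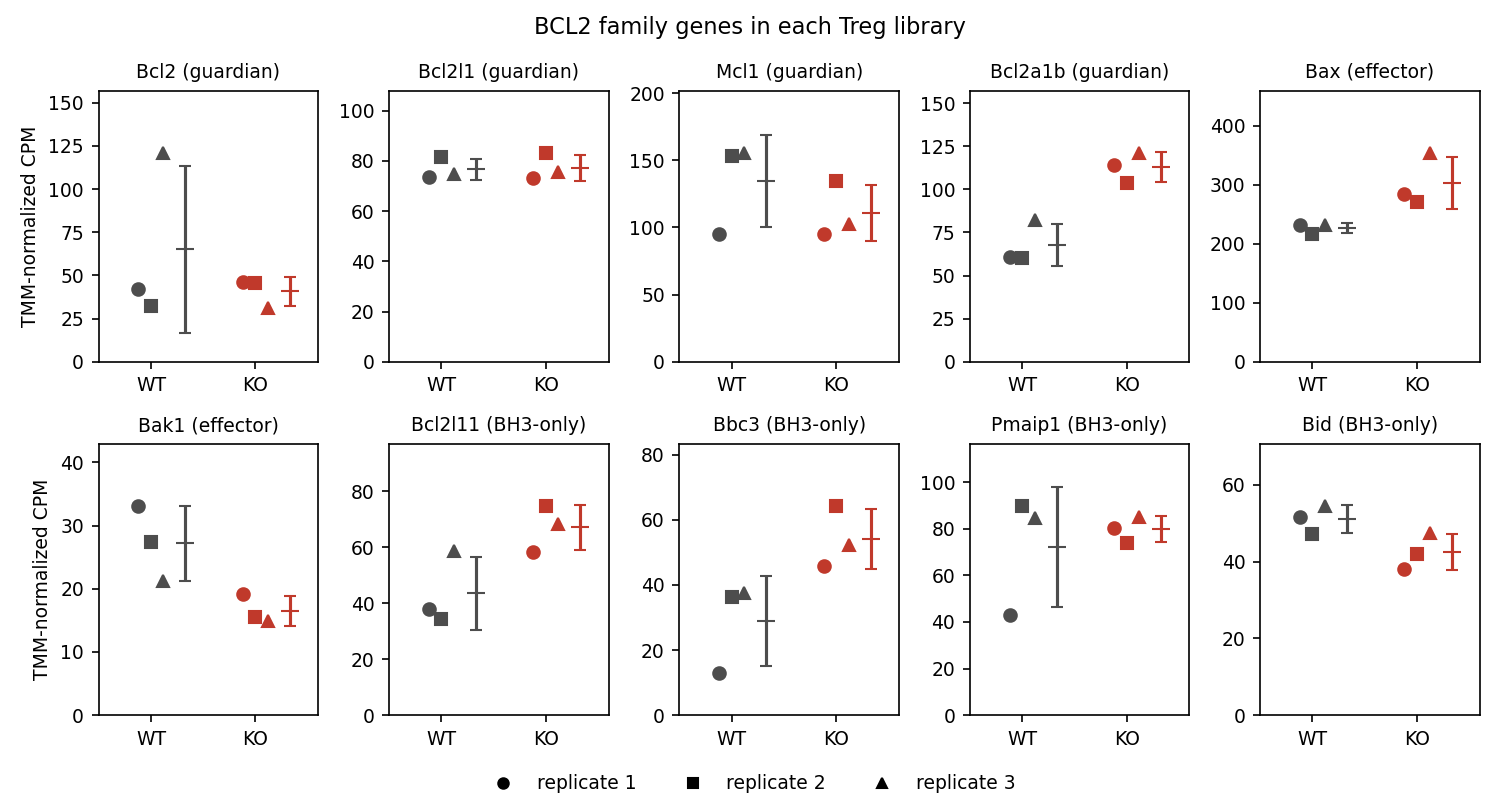
TMM-normalized CPM of the 10 genes in each library (points; shapes give the replicate), with the mean ± SD of the 3 libraries beside them; each axis starts at 0. Bcl2a1b, Bax and Bbc3 are higher in every KO library than in any WT library, Bak1 is lower in every KO library, and the other 6 genes overlap.

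Bcl2a1b, one of the mouse copies of the guardian A1, which NF-kB and antigen receptor signals are known to induce, had the smallest p of the 10. It measured 61.0, 60.2 and 82.0 CPM in WT replicates 1 to 3 and 114, 104 and 121 CPM in KO replicates 1 to 3. Every KO library was above every WT library. The means were 67.7 ± 12.4 CPM in WT and 113 ± 8.78 CPM in KO (SD, n = 3 each), a log2 fold change of 0.73 (SE 0.17, adjusted p = 0.0768 in edgeR). Without WT replicate 3 the log2 fold change was 0.90 (SE 0.15, adjusted p = 0.0171 in edgeR). DESeq2 gave 0.73 (SE 0.19, adjusted p = 0.00418 in DESeq2). Macrophages and monocytes also express A1. Their 9 markers in the table summed to 0.313% to 0.337% of the counts in KO and to 0.0658%, 0.121% and 0.814% in WT replicates 1 to 3. KO lay above the first 2 WT libraries by this measure and below the third. The part of these cells in the Bcl2a1b difference was not tested.

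The A1 genes are near-copies, and their reads cannot be assigned with confidence. Bcl2a1b (chr9:89199209-89207827, plus strand) has relatives on the same chromosome: Bcl2a1a (chr9:88956900-88962419, plus strand), Bcl2a1d (chr9:88723285-88731914, minus strand) and Bcl2a1c (chr9:114330135-114330578, plus strand). Of the 50-base windows of the Bcl2a1b transcript in GENCODE M21, 57.6% also occurred in Bcl2a1d and 41.1% in Bcl2a1a, but 0.260% in Bcl2a1c. Bcl2a1b also shares 401 exon bases with an overlapping gene model, Gm29094, on the same strand. The likeness extends to the sequence around the gene starts, as the stretches below show (RefSeq, GRCm38.p6). They are printed 5′ to 3′ on the strand of each gene, and all end before the RefSeq start of that gene. RefSeq and GENCODE starts differ: 64 bases of the Bcl2a1d stretch and 20 bases each of those of Bcl2a1a and Bcl2a1b lie inside the GENCODE gene. Capitals mark bases that differ from Bcl2a1b in a gapped alignment.
Bcl2a1b, chr9:89199089-89199228, plus strand: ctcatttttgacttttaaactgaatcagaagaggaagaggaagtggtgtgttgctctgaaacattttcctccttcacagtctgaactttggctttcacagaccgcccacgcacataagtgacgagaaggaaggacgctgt
Bcl2a1a, chr9:88956780-88956919, plus strand: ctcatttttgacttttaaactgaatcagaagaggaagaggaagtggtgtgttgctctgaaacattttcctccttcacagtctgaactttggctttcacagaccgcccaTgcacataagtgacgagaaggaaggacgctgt
Bcl2a1d, chr9:88731851-88731984, minus strand: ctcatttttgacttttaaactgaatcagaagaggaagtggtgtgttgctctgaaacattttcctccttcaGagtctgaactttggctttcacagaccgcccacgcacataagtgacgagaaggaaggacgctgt
Bcl2a1c, chr9:114329885-114330024, plus strand: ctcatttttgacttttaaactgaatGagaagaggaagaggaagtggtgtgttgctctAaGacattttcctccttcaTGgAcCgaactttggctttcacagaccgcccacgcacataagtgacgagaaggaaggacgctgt
Bcl2a1a differs from Bcl2a1b at 1 of 140 positions. Bcl2a1d differs at 1 of 134 and lacks 6 bases, and Bcl2a1c differs at 7 of 140.

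The A1 copies with most reads had higher values in KO. Bcl2a1a measured 15.4, 15.7 and 33.4 CPM in WT and 47.7, 43.1 and 49.1 CPM in KO (difference on the log2 scale 1.08, SE 0.31, adjusted p = 0.138 in edgeR). Bcl2a1d measured 31.3, 43.1 and 47.7 CPM in WT and 57.0, 48.7 and 61.6 CPM in KO (0.46, SE 0.20, adjusted p = 0.325 in edgeR). For both genes the groups did not overlap, although Bcl2a1d did so by a narrow margin. Bcl2a1c had 3 to 40 reads per library and a log2 fold change of 0.21 (SE 0.66, adjusted p = 0.914 in edgeR). The reads of Bcl2a1a, Bcl2a1b and Bcl2a1d together came to 108, 119 and 163 CPM in WT and 219, 195 and 232 CPM in KO. Bcl2a1b took 50.3% to 56.6% of this sum in WT and 52.1% to 53% in KO. The share of Bcl2a1a was 14.3%, 13.2% and 20.5% in WT and 21.2% to 22.1% in KO, and that of Bcl2a1d was 29.1% to 36.2% in WT and 24.9% to 26.6% in KO. Since the copies can exchange reads in counting, their values are not separate observations.

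The effectors differed in direction. Bax, whose product moves to mitochondria and forms pores there, lies at chr7:45461697-45466898 (minus strand). It measured 231, 216 and 231 CPM in WT and 285, 271 and 353 CPM in KO. Every KO library was above every WT library, and the WT libraries were close together. The means were 226 ± 8.55 CPM in WT and 303 ± 44.0 CPM in KO (SD, n = 3 each), a log2 fold change of 0.42 (SE 0.13, adjusted p = 0.164 in edgeR). DESeq2 gave 0.43 (SE 0.15, adjusted p = 0.0482 in DESeq2). Without KO replicate 3, the highest, the log2 fold change was 0.30. Bax shares 192 exon bases with an overlapping gene model on its strand, Gm45808. Bak1, which encodes BAK, resident in the mitochondrial membrane, lies at chr17:27019810-27029009 (minus strand). It shares 177 and 437 exon bases with 2 gene models named Ggnbp1 on the opposite strand. Without a known strand setting, reads there cannot be told apart. It measured 33, 27.4 and 21.2 CPM in WT and 19.2, 15.5 and 14.8 CPM in KO. Every KO library was below every WT library. The log2 fold change was -0.72 (SE 0.26, adjusted p = 0.221 in edgeR), with means of 27.2 ± 5.92 CPM in WT and 16.5 ± 2.34 CPM in KO (SD, n = 3 each). WT replicate 1 had the largest lung epithelial share (7.56%) and the most Bak1. WT replicate 3 had a larger share than WT replicate 2 (2.17% against 1.7%) but less Bak1. The part of epithelial cells in the Bak1 values was not tested. Without WT replicate 1 the log2 fold change was -0.53, and without WT replicate 3 it was -0.89.

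Of the BH3-only genes, those of BIM and PUMA had higher values in KO. Bcl2l11, which encodes BIM, lies at chr2:128126038-128162547 (plus strand). It measured 37.8, 34.2 and 58.6 CPM in WT and 58.4, 74.6 and 68.3 CPM in KO. The groups met at one point, WT replicate 3 being just above KO replicate 1. The means were 43.5 ± 13.1 CPM in WT and 67.1 ± 8.16 CPM in KO (SD, n = 3 each), a log2 fold change of 0.60 (SE 0.23, adjusted p = 0.243 in edgeR). Without WT replicate 3 it was 0.89 (SE 0.19, adjusted p = 0.0424 in edgeR). Bcl2l11 has 4 transcript rows, 3 of which, of 5037, 4869 and 4779 bases, repeat nearly the same reads. The shortest, of 974 bases, held 14.5%, 6.0% and 17.1% as many reads as the longest in WT and 8.50%, 9.87% and 7.26% in KO, from 3 reads in WT replicate 2 to 106 in WT replicate 3.

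Bbc3, which encodes PUMA, a BH3-only protein induced by p53 and by FOXO factors, lies at chr7:16308393-16318205 (plus strand). It measured 12.8, 36.3 and 37.5 CPM in WT and 45.8, 64.1 and 52.3 CPM in KO. The groups did not overlap, and WT replicate 1 was far below the rest. The log2 fold change was 0.93, the largest of the 10, with an SE of 0.38 (adjusted p = 0.278 in edgeR). Without WT replicate 1 it was 0.56, and without WT replicate 3 it was 1.3, so the size of the difference depended on which WT library was included. The means were 28.9 ± 13.9 CPM in WT and 54.1 ± 9.30 CPM in KO (SD, n = 3 each).

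Pmaip1 and Bid showed the smallest differences among the BH3-only genes. Pmaip1, which encodes NOXA, a selective partner of MCL1 and A1, measured 42.8, 89.6 and 84.5 CPM in WT and 80.2, 74.0 and 85.3 CPM in KO. WT replicate 1 was again low, and the other 5 libraries were alike. The log2 fold change was 0.16 (SE 0.26, adjusted p = 0.820 in edgeR), -0.11 without WT replicate 1 and -0.12 when scaled to pan-T cell genes. Bid, which links death receptors to mitochondria once caspase-8 cleaves it, lies at chr6:120891930-120916853 (minus strand). It measured 51.8, 47.2 and 54.4 CPM in WT and 38.0, 42.0 and 47.5 CPM in KO. Only KO replicate 3 reached the WT range. The log2 fold change was -0.27 (SE 0.16, adjusted p = 0.479 in edgeR). Bid shares 628 exon bases with Bcl2l13 on the opposite strand, a gene whose means were 54.7 (WT) and 48.2 (KO) CPM, and without a known strand setting their reads cannot be told apart there.

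Per transcript length, Bax and the A1 gene led in every library. Levels are given here as RPKM (CPM per kilobase of the chosen transcript). Bax was at 260 ± 9.84 RPKM in WT and 349 ± 50.6 RPKM in KO, the first of the 10 in 6 of 6 libraries and number 283 of the 12720 tested genes by mean level. Bcl2a1b was second in 6 of 6 libraries, at 88.7 ± 16.2 RPKM in WT and 148 ± 11.5 RPKM in KO (SD, n = 3 each). In WT there followed Mcl1, Bcl2l1, Pmaip1 and Bid, with mean levels of 38.6, 32.3, 27.2 and 27.0 RPKM, each overlapping the next in library range. Bbc3, Bak1, Bcl2 and Bcl2l11 came last in WT, at 14.6, 13.6, 9.03 and 8.64 RPKM, and again each overlapped the next. In KO the order from the third place was Bcl2l1, Mcl1, Pmaip1, Bbc3 and Bid, with overlapping neighbours, at 32.6, 31.8, 30.1, 27.4 and 22.5 RPKM. Bcl2l11 (13.3 RPKM), Bak1 (8.25 RPKM) and Bcl2 (5.69 RPKM) closed the order in KO with ranges that did not overlap. Bcl2 was the lowest of the 10 genes in 5 of 6 libraries and the eighth in WT replicate 3. The median of all tested genes was 8.89 RPKM in WT and 8.38 RPKM in KO.

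The make-up of the family by role was alike in the groups. Guardian genes held 29.8% to 35.3% of the summed RPKM of the 10 genes in WT and 30.5% to 34.0% in KO. Effector genes held 48.7% to 58.4% in WT and 50.6% to 56.3% in KO, nearly all of it Bax, and BH3-only genes 11.9% to 16.5% in WT and 13.2% to 15.4% in KO. Bcl2, Bcl2l1 and Mcl1 together held 13.3%, 16.3% and 16.4% of the same 10-gene sum in WT. In KO they held 10.2%, 12.6% and 8.92%, so that the groups did not overlap, and Bcl2a1b made up the rest of the guardian share. Bax and Bcl2a1b made up much of the sum and had higher values in KO, which lowers the share of the others. Bcl2l1 itself was at 32.3 RPKM in WT and 32.6 RPKM in KO. Mcl1 was at 38.6 RPKM in WT and 31.8 RPKM in KO, and Bcl2 at 9.03 RPKM in WT and 5.69 RPKM in KO. Each of these genes overlapped between the groups. Their joint share leaves out Bcl2a1b, the guardian whose KO libraries were all above WT, and was not tested. Ratios of genes within a library do not depend on the scaling between libraries. The log2 ratio of Bcl2 to Bcl2l11 was -0.35, -0.61 and 0.53 in WT and -0.86, -1.23 and -1.64 in KO. The mean difference was -1.10, and -0.76 without WT replicate 3. The ratio of Bax to Bak1, chosen after the values had been seen, was 16.1, 18.2 and 25.1 in WT and 34.2, 40.3 and 54.9 in KO. Neither ratio was tested, and both combine genes whose own differences were not called.

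**Figure D4:**
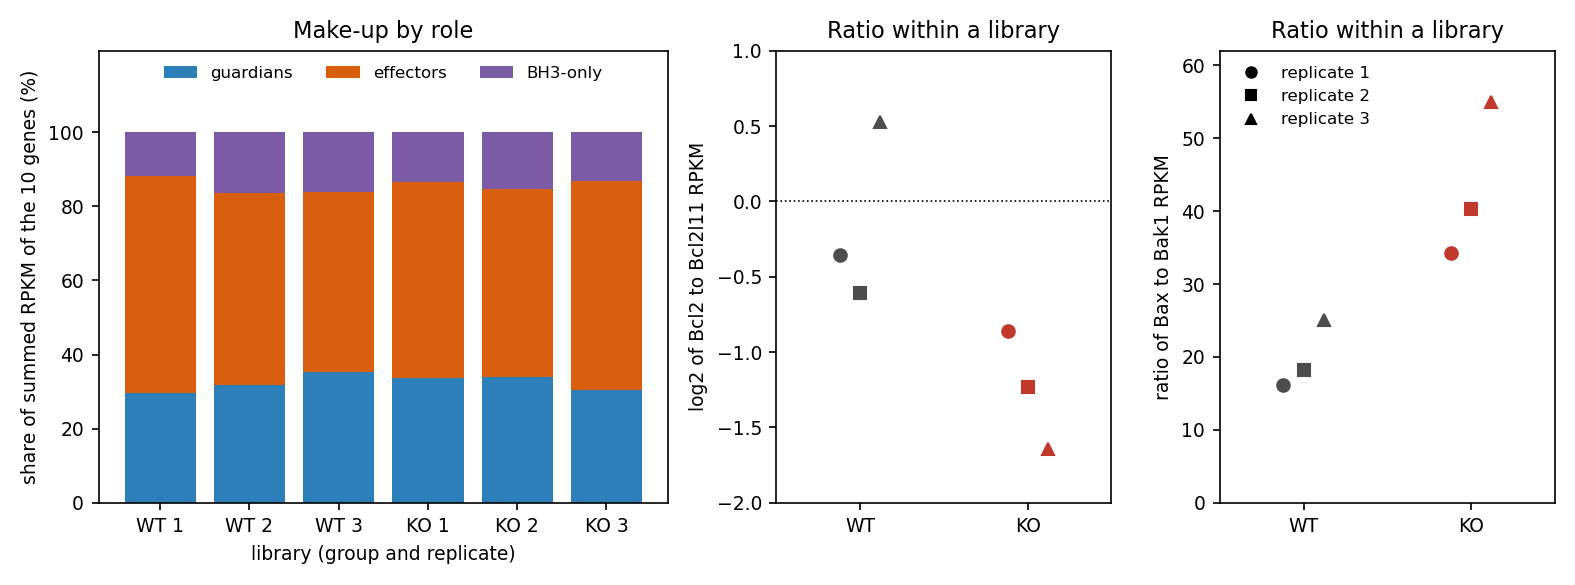
Left, share of the summed RPKM of the 10 genes held by guardians, effectors and BH3-only genes in each library; middle, log2 ratio of Bcl2 to Bcl2l11; right, ratio of Bax to Bak1 (points are libraries, grey for WT and red for KO). Effectors hold 48.7% to 58.4% throughout, while KO lies below WT in the middle panel and above it in the right panel. The right ratio was chosen after the values had been seen. Bax and Bak1 each separate the groups, in opposite directions, so their ratio must do so too.

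Genes that act around the BCL2 family were read from 6 lists of 76 genes, of which 73 were tested. One, Birc5, was called lower in KO and none higher, where 0.983% of all tested genes were called lower, so the count was near that of genes at large. Birc5 encodes survivin, an inhibitor-of-apoptosis protein that also works in mitosis. It measured 81.7, 56.1 and 47.7 CPM in WT and 27.8, 25.5 and 29.1 CPM in KO (difference on the log2 scale -1.17, SE 0.23, adjusted p = 0.0466 in edgeR). Every KO library was below every WT library. Of the fits that left out 1 library, only the one without WT replicate 3 called it, and its adjusted p ran from 0.000500 to 0.239 over 16 alternatives. The other 6 tested genes of its list also had negative log2 fold changes, and the list's median was -0.33. Of 14 genes of caspases and the apoptosome none was called, 10 were negative and the median was -0.14. Among all 12720 tested genes 6897 were negative, with a median of -0.04. Casp8, the initiator caspase of death receptors, had a log2 fold change of -0.67 (SE 0.15, adjusted p = 0.0709 in edgeR). Without WT replicate 3, Casp8 was called lower, at -0.78 (SE 0.14, adjusted p = 0.0204 in edgeR).

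The remaining lists held no called gene. Among 11 death receptor and adaptor genes (median -0.16), Cflar, which encodes the caspase-8 inhibitor FLIP, had 0.43 (SE 0.12, adjusted p = 0.130 in edgeR) and Tradd, an adaptor of TNF receptor 1, 0.50 (SE 0.18, adjusted p = 0.236 in edgeR). Of 14 tested genes of p53 and its targets (median 0.02), those of smallest p were Sesn2, a stress-induced regulator of metabolism, with -0.83 (SE 0.31) and Trp53 itself with 0.28 (SE 0.13). Of 16 tested further genes of the BCL2 family (median 0.13), those of smallest p were Bik, a BH3-only gene, with 1.24 (SE 0.33, adjusted p = 0.117 in edgeR) and Bcl2a1a. Bik was a weakly expressed gene, with 54, 7 and 64 reads in WT and 143, 159 and 326 in KO. Of 11 genes linked to BIM, MCL1 and the effectors (median -0.03), those of smallest p were the FOXO transcription factor genes. Foxo1 measured 120, 147 and 84.8 CPM in WT and 69.8, 84.8 and 57.9 CPM in KO, and Foxo3 measured 121.7, 85.5 and 133 CPM in WT and 137, 179 and 183 CPM in KO. Their log2 fold changes were -0.71 (SE 0.23, adjusted p = 0.172 in edgeR) and 0.54 (SE 0.19, adjusted p = 0.225 in edgeR). Without WT replicate 3, Foxo1 was called lower, at -0.90 (SE 0.19, adjusted p = 0.0401 in edgeR), and Bcl2a1a higher, at 1.59 (SE 0.22, adjusted p = 0.00766 in edgeR). In that fit the remaining WT libraries held a smaller macrophage and monocyte marker share (0.0658% and 0.121%) than KO (0.313% to 0.337%). The part of this in these calls was not tested.

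**Figure D5:**
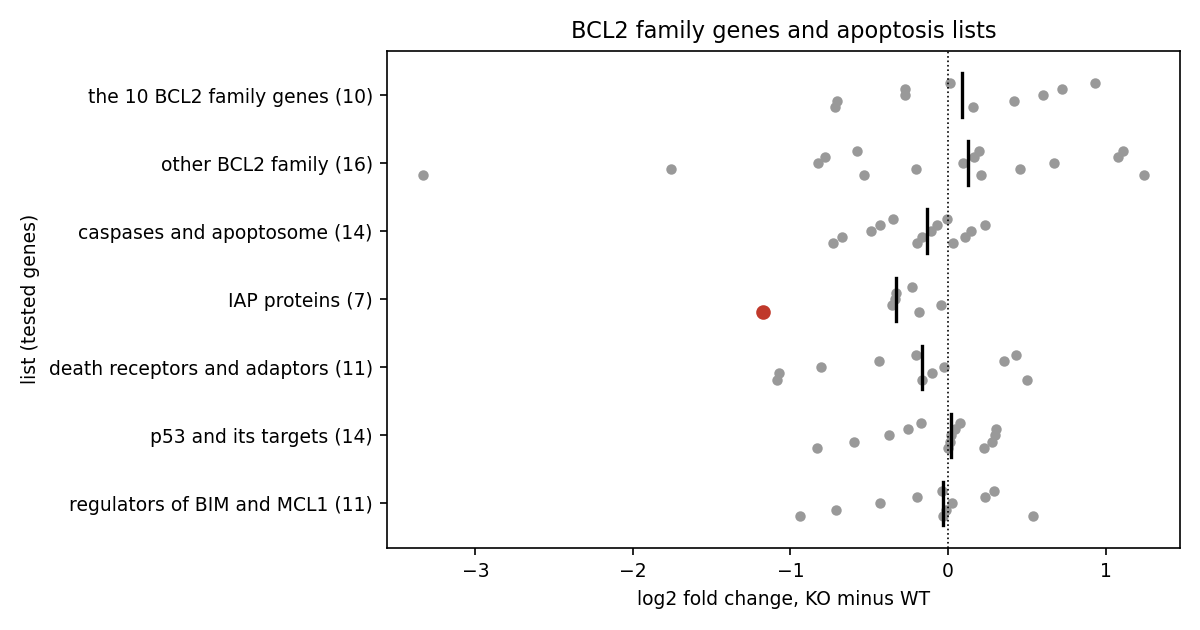
Log2 fold change (KO minus WT) of each tested gene of the BCL2 family and of 6 apoptosis lists (grey, not called; red, called by edgeR), with the median of each list as a black bar. Birc5 at -1.17 is the one called gene, and the medians lie between -0.33 and 0.13.

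Promoter windows were read for 9 of the 10 genes (RefSeq, GRCm38.p6, from 250 bases before to 50 after an annotated start, some genes having several starts); Pmaip1 had no entry. Motifs were searched on both strands. The STAT-type motif TTCNNNGAA was in the windows of 0 of the 9 genes and of 9.55% of all genes with a window, and the interferon-type motif (GAAA, any 2 bases, GAAA) in 0 of 9 and 3.99%. The forkhead motif TGTTTAC was in 2 of 9, Bcl2l11 and Bbc3, against 4.05% of all genes. The NF-kB-type motif (GGG, any 2 bases, TTTCC) was in 3 of 9, Bcl2l1, Mcl1 and Bbc3, against 1.89%. Bcl2l1, Bcl2l11 and Bbc3 had several windows each, which gives more chances of a match than a single window. Per window, the forkhead motif was in 3.65% and the NF-kB-type motif in 1.63% of all windows. A p53 half-site was in 1 of 9, Bax, against 9.55%. The stretches below, picked with the values known, show the forkhead matches and the NF-kB-type matches of guardian genes. BIM and PUMA are textbook FOXO targets. Neither gene was called between KO and WT. The windows of Bax and Bcl2a1b, which also had higher values in KO, held no forkhead match. Sites outside the windows or of another sequence were not searched. A part of FOXO factors in these values was not tested. Capitals mark the motif on the strand of the gene or its reverse complement.
Bcl2l11, forkhead, chr2:128125791-128125837, plus strand: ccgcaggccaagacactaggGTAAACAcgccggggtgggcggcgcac
Bbc3, forkhead, chr7:16310074-16310120, plus strand: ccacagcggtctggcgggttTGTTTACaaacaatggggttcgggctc
Bcl2l1, NF-kB-type, chr2:152830906-152830955, minus strand: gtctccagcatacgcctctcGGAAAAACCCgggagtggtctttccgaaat
Mcl1, NF-kB-type, chr3:95658673-95658722, plus strand: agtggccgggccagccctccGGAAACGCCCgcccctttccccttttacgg
The Bbc3 and Bcl2l1 stretches lie inside the GENCODE gene, beside other annotated starts. A match is a run of letters and not evidence of binding, and no match covers these windows alone.

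The genes whose values ran most like those of Bcl2a1b over the 6 libraries were Plin2 (Pearson r of log2 CPM 0.998), Arl14ep (0.995) and Stx4a (0.992). Plin2, which coats lipid droplets, was called higher in KO (log2 fold change 1.39, SE 0.27, adjusted p = 0.0476 in edgeR), at 83.2, 82.8 and 163 CPM in WT and 285, 260 and 329 CPM in KO. With 6 points and 12720 genes, values of r this high are a description of these libraries.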

How the data were processed

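RNA of sorted Treg cells was counted in 6 libraries (3 KO, 3 WT), grouped by title and genotype tag. Per the file headers, the deposited table holds unnormalized read counts, 1 row for each RefSeq transcript. The tools named in the submitters' processing notes are TopHat2 2.2.1, Bowtie2 2.2.6 and bcl2fastq, with build mm10. Not given in the sources used here are the counting program, the strand setting and the handling of multiply mapped reads. Transcript length (another column the authors deposited, in bases) served only for RPKM.

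Of 31682 rows, the row with the most reads was kept for each of 23992 symbols. Genes passing filterByExpr (minimum count 10, minimum total 15) were tested with edgeR 4.0.16 in R 4.3.3: TMM factors, glmQLFit with robust estimation, glmQLFTest, Benjamini-Hochberg adjustment over 12720 genes, threshold 0.05. The fit was also run on simulated counts with known changes. Apart from those changes, gene means were the same in every simulated library, unlike the uneven marker shares of the real libraries. SE was taken as the size of the log2 fold change over the root of the F statistic. The labels do not say that replicates are separate animals, so p-values measure the spread between these samples. The genes and lists were chosen with earlier results of these data known. Named genes are the 10, plus per list the called genes (up to 4), or the 2 of smallest p where none was called, and the 3 genes most correlated (log2 of CPM + 0.5) with the member of smallest p; others named for read sharing or low counts were chosen after their values were seen. One gene that this rule names is not reported here. Positions are from GENCODE M21. Alternatives were other scaling factors (among them 13 pan-T cell genes), DESeq2 1.42.0, limma-voom (limma 3.58.1), filters, summed rows, a replicate block and leaving out each library.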

Additional observations from a re-analysis of the deposited data

How the results depend on the processing

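Each of the 10 genes was recomputed under 16 alternatives, and 149 of the 160 values kept direction and side of the threshold. Gained calls were Bax and Bcl2a1b with DESeq2 (2 of the 10) and Bcl2a1b and Bcl2l11 without WT replicate 3 (range over single libraries left out, 0 to 2). Direction reversed for Bcl2 (-0.98 to 0.11 with single libraries left out), Bcl2l1 (-0.035 to 0.075; -0.22 scaled to pan-T cell genes; -0.0093 by limma-voom with sample quality weights) and Pmaip1 (-0.11 to 0.34; -0.12 scaled to pan-T cell genes). Pan-T scaling moved the median of all genes from -0.04 to -0.29. Under it Bax was at 0.17, Bcl2a1b at 0.45, Bcl2l11 at 0.31, Mcl1 at -0.53 and Bid at -0.53. Their adjusted p in edgeR was 0.669, 0.426, 0.663, 0.420 and 0.327. Relative to that median Bax was at 0.46, Bcl2a1b at 0.74, Bcl2l11 at 0.60 and Mcl1 and Bid at -0.24. Bcl2l1 was at 0.07 and Pmaip1 at 0.17. Taking off the median largely undoes the scaling, so these values return near the main fit and are no separate check. Over all genes edgeR's 221 calls became 134 with summed rows, 863 with DESeq2 and 4 to 518 with single libraries left out (lowest without KO replicate 1, highest without WT replicate 3). Among apoptosis genes, 3 were called higher with DESeq2 and 0 to 1 with single libraries left out. Called lower were 2 with DESeq2, pan-T scaling or quality weights and 0 without robust estimation or with summed rows. With single libraries left out 0 to 3 were called lower. Of all genes, DESeq2 called 2.91% higher, and the fit without WT replicate 3, which gave the highest of these counts, called 1.87% higher and 2.13% lower. Pan-T scaling called 182 of all genes and quality weights 326, in both directions together. The cause of these shifts was not tested. Correlations of same-numbered deviations were 0.09, -0.15 and -0.04, against -0.14 to 0.19 for other numbers. They showed no pairing of libraries by replicate number, but with so few libraries they cannot exclude it. With the replicate block 123 genes were called, 0 of the 10 and 0 apoptosis genes. WT replicate 2 was the shallowest: 3 counts equal 2.05 CPM there and 0.157 to 0.401 CPM elsewhere.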
